A study of Homo sapiens with 6 samples.

Results

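The 9 genes described here are targets of NRF2, the transcription factor that drives the antioxidant response: NQO1, HMOX1, GCLC, GCLM, TXNRD1, SRXN1, SLC7A11, FTH1 and FTL. They were taken by name, as the rows of the gene matrix that carry these symbols. Earlier results of these data were known when they were chosen. All 9 of 9 were found among the 58735 rows of the matrix, and all 9 passed the filter on low counts that left 14046 genes for testing. The sequenced RNA was from unmodified (wild-type) PANC-1, a human cell line established from a pancreatic ductal adenocarcinoma, whose cells had been given conditioned medium (CM) from co-cultures of PANC-1 cells with macrophages. In the CM-Vector group (3 libraries) the tumour cells of the co-culture carried an empty vector, and in the CM-MLKL group (3 libraries) they overexpressed MLKL, the protein that ruptures the membrane in necroptosis. The sequenced cells themselves carried no construct, and every library came from cells that had received a macrophage co-culture medium, so none stands for untreated cells. A time of 72 h is stated for the series and belongs, per the methods, to the direct co-culture. The labels do not name the macrophages, and the methods describe THP-1-derived macrophages, from a human monocytic line, for co-culture with pancreatic cancer cells in general. The methods describe independent experiments for these libraries.

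NRF2 is encoded by NFE2L2 and is normally held in the cytoplasm by KEAP1, which hands it to a CUL3 ubiquitin ligase for destruction. Oxidants and electrophiles modify cysteines of KEAP1, NRF2 then accumulates, pairs with small MAF proteins and binds antioxidant response elements, while BACH1 competes for the same elements and represses genes such as HMOX1 and the ferritins. The targets divide by role into glutathione synthesis (SLC7A11, GCLC, GCLM), thioredoxin recycling (TXNRD1, SRXN1), quinone reduction (NQO1), and haem breakdown with iron storage (HMOX1, FTH1, FTL).

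The core of the antioxidant response element, TGACNNNGC, was searched on both strands of the RefSeq promoter windows (GRCh38.p14, 250 bases before to 50 bases after each start site). Such windows were matched for 6 of the 9 genes, with none for HMOX1, SLC7A11 and FTH1. The motif occurred in GCLM and TXNRD1 and was not found in the windows of NQO1, GCLC, SRXN1 and FTL, while 13.3% of all 35116 windows in the table held it. The sequences are shown because they hold the core letters of the element by which NRF2 is known to act on its targets. They are printed on the strand of the gene, with the motif in capitals.
GCLM, chr1:93909431-93909490, minus strand: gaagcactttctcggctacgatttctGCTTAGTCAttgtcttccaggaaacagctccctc
TXNRD1, first start site, chr12:104215654-104215714, plus strand: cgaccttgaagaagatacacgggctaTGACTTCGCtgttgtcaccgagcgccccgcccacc
TXNRD1, second start site, chr12:104286904-104286964, plus strand: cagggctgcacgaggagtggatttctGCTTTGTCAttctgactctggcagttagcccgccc
In GCLM the motif lay on the opposite strand, at bases -34 to -26 from the start site. In TXNRD1 it lay on the gene's strand at -99 to -91 of the first start site and on the opposite strand at -102 to -94 of the second. Another match at the first start site of TXNRD1 began at base -8, ran across the start and is not printed. These matches describe letters only, and no binding was measured. Sequence outside the windows was not searched, so a gene without a match may carry the motif elsewhere.

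Before the members are compared, 1 library has to be named. CM-Vector replicate 1 stood apart from the other 5 libraries on the first principal component of log2 CPM (counts relative to the library size after TMM scaling, the trimmed mean of M-values), which held 48.6% of the variance, and the values of the 9 genes are given with and without it. Total counts were 15838403 (CM-MLKL replicate 2) to 17885429 per library. Mitochondrially encoded genes held 3.36% to 3.85% of counts with CM-Vector and 2.29% (replicate 2) to 5.11% with CM-MLKL. All 5 epithelial markers (KRT8, KRT18, KRT19, KRT7, EPCAM) were detected in every library. Their summed levels were 4692 to 5517 CPM with CM-Vector and 2849 to 3942 CPM with CM-MLKL. All 5 had log2 fold changes below 0. Of these, 3 had an unadjusted p under 0.05 (edgeR), beside 6.22% of all genes tested, and 0 had an adjusted p under 0.05. Of 15 macrophage markers, 9 to 11 had at least 1 count in a library, PTPRC and MRC1 had 0 in all 6, and the summed levels were 14.8 to 19.0 CPM with CM-Vector and 20.7 to 24.6 CPM with CM-MLKL. LAPTM5 gave the largest share of that sum, at 8.59 ± 1.40 and 17.0 ± 1.29 CPM (SD, n = 3), and the higher sum with CM-MLKL rests on it. The other 3 markers that could be tested were lower on average with CM-MLKL, CD14 at 4.46 and 2.43 CPM, ITGAM at 1.995 and 0.771 CPM and CD33 at 0.927 and 0.671 CPM. The part of these marker levels in the results for the NRF2 targets was not tested.

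The comparison asks whether medium from co-cultures with MLKL-overexpressing tumour cells changed the antioxidant targets of the recipient cells. None of the 9 genes passed the test in either direction. Fitted log2 fold changes ran from -1.15 for SLC7A11 to 0.049 for HMOX1, with 8 of the 9 below 0 and a median of -0.43, beside a median of -0.043 over all genes tested, of which 55.5% were below 0. The median of the 9 was -0.22 without CM-MLKL replicate 2 and -0.25 without CM-Vector replicate 1. In 4 genes, FTH1, TXNRD1, GCLM and SRXN1, every CM-MLKL library lay below every CM-Vector library, and in none did every CM-MLKL library lie above. Over all genes tested, 5.50% had all CM-MLKL libraries below and 6.43% had all above. With the quasi-likelihood test of edgeR and Benjamini-Hochberg correction over all genes tested, 0 of the 9 had an adjusted p under 0.05, and 0 had an unadjusted p under 0.05. Of all genes, 0.513% were called (0.406% higher and 0.107% lower with CM-MLKL), and 6.22% had an unadjusted p under 0.05. DESeq2 and limma-voom also called 0 of the 9, with 1 and 0 at an unadjusted p under 0.05. Of all 14046 genes, DESeq2 called 140 higher and 67 lower, and limma-voom called 59 higher and 14 lower. The shares of all genes at an unadjusted p under 0.05 were not counted for these 2 tests. The lowest adjusted p among the 9 was 0.822, for FTH1.

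**Figure D1:**
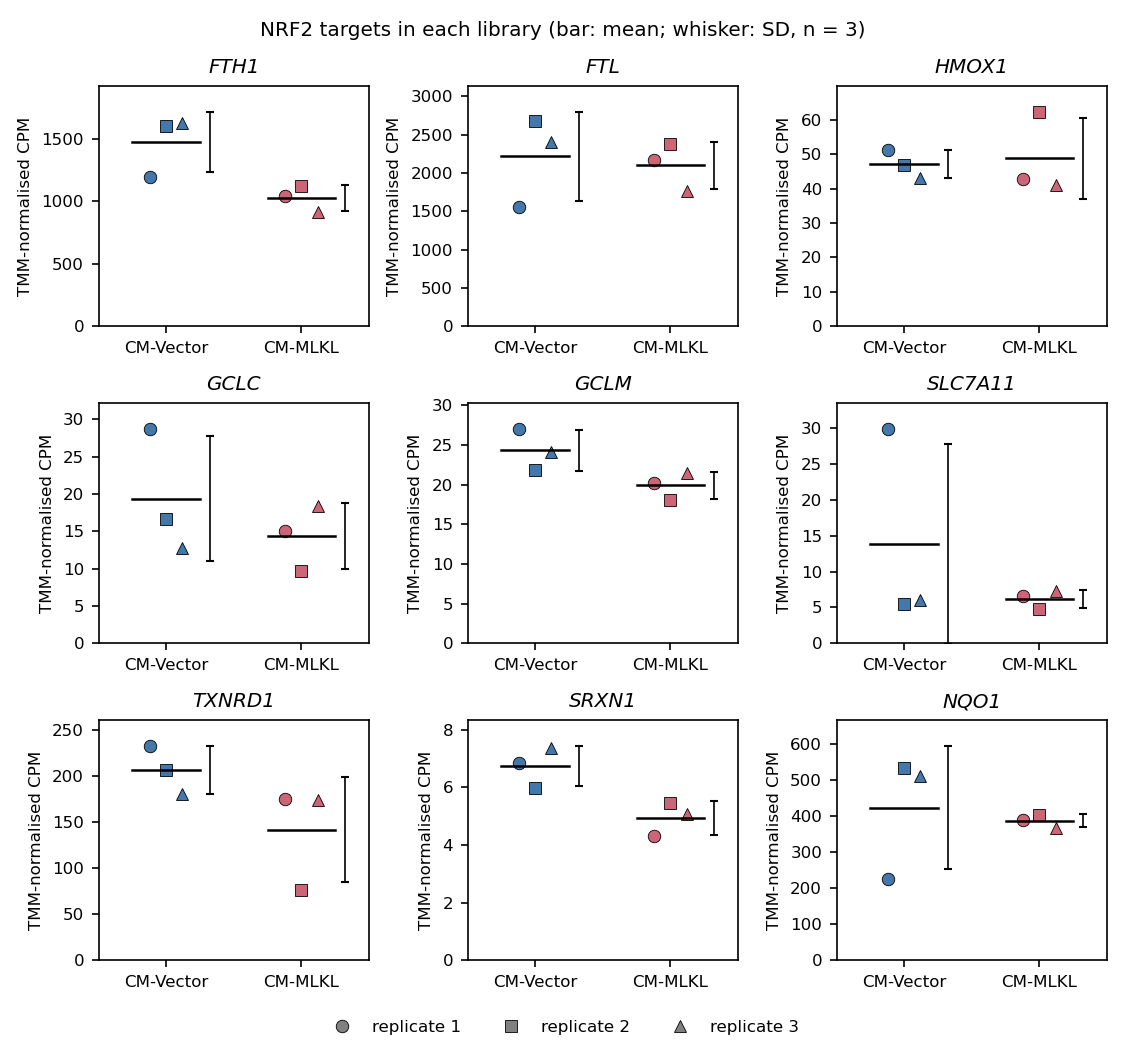
TMM-normalised CPM (y axes, linear from 0) of the 9 genes in each of the 3 CM-Vector and 3 CM-MLKL libraries, with marker shape for the replicate number, a horizontal line for the mean and a whisker for the SD. The groups do not overlap for FTH1, TXNRD1, GCLM and SRXN1, and CM-Vector replicate 1 is far above the other libraries for SLC7A11 and far below them for NQO1.

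Iron storage genes held the highest levels. FTH1 encodes the ferritin heavy chain, which oxidises iron for storage, and FTL the light chain, which helps the iron core to form. FTH1 was at 1194, 1599 and 1624 CPM in CM-Vector replicates 1, 2 and 3 and at 1040, 1121 and 915 CPM in CM-MLKL replicates 1, 2 and 3. The groups did not overlap, although CM-Vector replicate 1 was closer to the CM-MLKL libraries than to its own group. The means were 1472 ± 241 and 1025 ± 103 CPM (SD, n = 3), a log2 fold change of -0.52 (SE 0.241, 95% interval -1.05 to 0.011, adjusted p = 0.822, edgeR). Without CM-Vector replicate 1 the log2 fold change of FTH1 was -0.62 (95% interval -1.04 to -0.21, unadjusted p = 0.00753, adjusted p = 0.143, edgeR), which was the lowest adjusted p of this gene over all settings tried.

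FTL did not share this separation. It was at 1561, 2677 and 2410 CPM with CM-Vector and at 2165, 2373 and 1761 CPM with CM-MLKL. The lowest and the highest library were both in the CM-Vector group, and the means of 2216 ± 583 and 2100 ± 311 CPM (SD, n = 3) gave a log2 fold change of -0.078 (95% interval -0.68 to 0.53, adjusted p = 0.999, edgeR). Without CM-Vector replicate 1 the log2 fold change of FTL was -0.25.

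The ratio of the heavy to the light chain does not depend on how a library was scaled. Counts of FTH1 divided by those of FTL gave 0.765, 0.597 and 0.674 in the CM-Vector libraries, against 0.480, 0.472 and 0.520 in the CM-MLKL libraries. All CM-MLKL libraries lay below all CM-Vector libraries, including CM-Vector replicate 1, which held the highest ratio. The log2 ratio averaged -0.57 ± 0.178 and -1.03 ± 0.0736 (SD, n = 3), a difference of -0.46 (two-sided exact permutation test, p = 0.10, which is the smallest p that 3 against 3 libraries allow). With 1 library left out the difference ranged from -0.55 to -0.37. Both genes have processed pseudogenes, and reads mapping to more than 1 copy could be split between them. The 25 FTH1 pseudogene rows held 1678 counts against 128828 for FTH1 itself (0.992% to 1.60% per library), and the 16 FTL pseudogene rows 0.0489% of those of FTL.

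**Figure D2:**
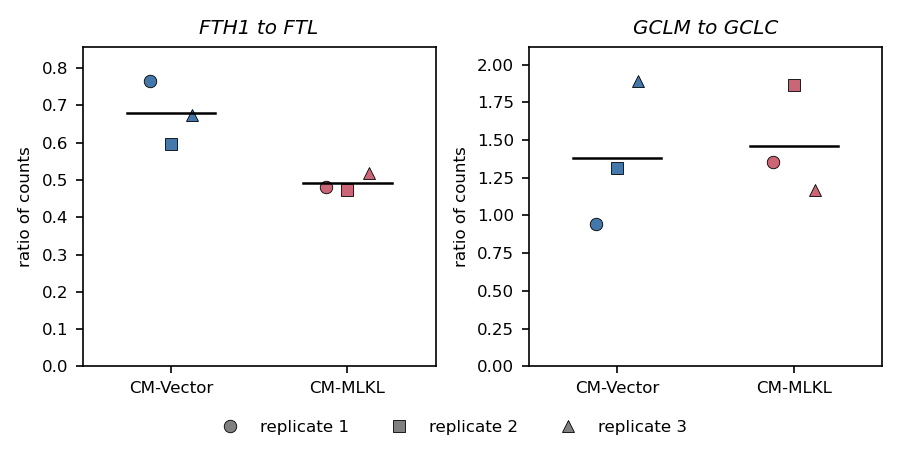
Ratio of counts within each library (y axes, linear from 0) for the ferritin chains FTH1 to FTL and for the glutamate-cysteine ligase subunits GCLM to GCLC, with a point per library, marker shape for the replicate number and a line for the mean of 3 libraries. The ferritin ratio is 0.597 to 0.765 with CM-Vector and 0.472 to 0.520 with CM-MLKL, while the ranges of the ligase ratio overlap.

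HMOX1 encodes haem oxygenase-1, which breaks haem into biliverdin, carbon monoxide and free iron. It was at 51.3, 46.8 and 43.1 CPM with CM-Vector and at 42.8, 62.3 and 41.1 CPM with CM-MLKL. The highest and the lowest library were both in the CM-MLKL group, and the other 4 lay within 42.8 to 51.3 CPM. The means were 47.1 ± 4.09 and 48.7 ± 11.8 CPM (SD, n = 3; log2 fold change 0.049, 95% interval -0.52 to 0.61, adjusted p = 0.999, edgeR). Without CM-MLKL replicate 2, which held the highest level, the log2 fold change of HMOX1 was -0.16, and without CM-Vector replicate 1 it was 0.15.

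Glutathione synthesis starts with cystine import by SLC7A11, the light chain of the cystine-glutamate exchanger. SLC7A11 was at 29.9, 5.49 and 6.08 CPM with CM-Vector and at 6.60, 4.85 and 7.22 CPM with CM-MLKL. A single library, CM-Vector replicate 1, stood far above every other, and the remaining 5 lay within 4.85 to 7.22 CPM. The means of 13.8 ± 13.9 and 6.22 ± 1.23 CPM (SD, n = 3) gave the most negative value among the 9, a log2 fold change of -1.15 (SE 0.595, 95% interval -2.47 to 0.16, adjusted p = 0.911, edgeR). Without CM-Vector replicate 1 it turned to 0.13 (95% interval -0.48 to 0.75, adjusted p = 0.872, edgeR). SLC3A2, the heavy chain that carries SLC7A11 to the membrane, was at 503, 480 and 473 CPM with CM-Vector and at 473, 684 and 476 CPM with CM-MLKL, and did not show the high value in CM-Vector replicate 1.

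GCLC and GCLM encode the catalytic and the modifier subunit of glutamate-cysteine ligase, the rate-limiting enzyme of glutathione synthesis. GCLC was at 28.7, 16.7 and 12.8 CPM with CM-Vector and at 14.98, 9.69 and 18.4 CPM with CM-MLKL. CM-Vector replicate 1 was again the highest library and CM-MLKL replicate 2 the lowest, and the other 4 were mixed between the groups. The log2 fold change of GCLC was -0.43 (SE 0.368, 95% interval -1.25 to 0.38, adjusted p = 0.999, edgeR), and without CM-Vector replicate 1 it was -0.0078 (adjusted p = 0.994, edgeR).

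GCLM was at 27.1, 21.9 and 24.1 CPM with CM-Vector and at 20.3, 18.0 and 21.4 CPM with CM-MLKL. The groups did not overlap, but the lowest CM-Vector and the highest CM-MLKL library (21.9 and 21.4 CPM) lay closer together than the SD of either group (2.58 and 1.73 CPM, n = 3). The log2 fold change of GCLM was -0.29 (95% interval -0.84 to 0.26, adjusted p = 0.999, edgeR), and -0.18 without CM-Vector replicate 1. The ratio of GCLM to GCLC was 0.942, 1.32 and 1.89 in the CM-Vector libraries, against 1.35, 1.86 and 1.17 in the CM-MLKL libraries, with overlapping groups (difference in log2 ratio 0.11, two-sided exact permutation test, p = 0.80).

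TXNRD1 encodes the cytosolic thioredoxin reductase, which uses NADPH to recycle thioredoxin. It was at 233, 207 and 181 CPM with CM-Vector and at 176, 76.5 and 174 CPM with CM-MLKL. The groups did not overlap, and CM-MLKL replicate 2 stood far below the other 5 libraries. The means were 207 ± 26.3 and 142 ± 56.8 CPM (SD, n = 3; log2 fold change -0.54, SE 0.321, 95% interval -1.25 to 0.17, adjusted p = 0.992, edgeR). Without CM-MLKL replicate 2 the log2 fold change of TXNRD1 was -0.24, and it was -0.42 without CM-Vector replicate 1. Without any other single library it lay between -0.72 and -0.54.

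SRXN1 encodes sulfiredoxin, which restores peroxiredoxins that have been overoxidised. It was at 6.85, 5.98 and 7.37 CPM with CM-Vector and at 4.30, 5.45 and 5.09 CPM with CM-MLKL, from 75 to 140 counts a library. The groups did not overlap, but their nearest libraries (5.98 and 5.45 CPM) lay closer together than the SD of either group (0.705 and 0.586 CPM, n = 3). Neither CM-Vector replicate 1 nor CM-MLKL replicate 2 was an extreme of this gene. The log2 fold change of SRXN1 was -0.44 (SE 0.314, 95% interval -1.14 to 0.25, adjusted p = 0.999, edgeR), and -0.40 without CM-Vector replicate 1.

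NQO1 encodes the quinone reductase that is widely used as a readout of NRF2 activity. It was at 226, 534 and 510 CPM with CM-Vector and at 390, 403 and 367 CPM with CM-MLKL. CM-Vector replicate 1 was the lowest of all 6 libraries, CM-Vector replicates 2 and 3 were the highest, and the CM-MLKL libraries lay between them. The means were 423 ± 171 and 386 ± 18.3 CPM (SD, n = 3; log2 fold change -0.13, 95% interval -0.84 to 0.57, adjusted p = 0.999, edgeR). Without CM-Vector replicate 1 the log2 fold change of NQO1 was -0.40 (95% interval -0.82 to 0.016, adjusted p = 0.354, edgeR).

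**Figure D3:**
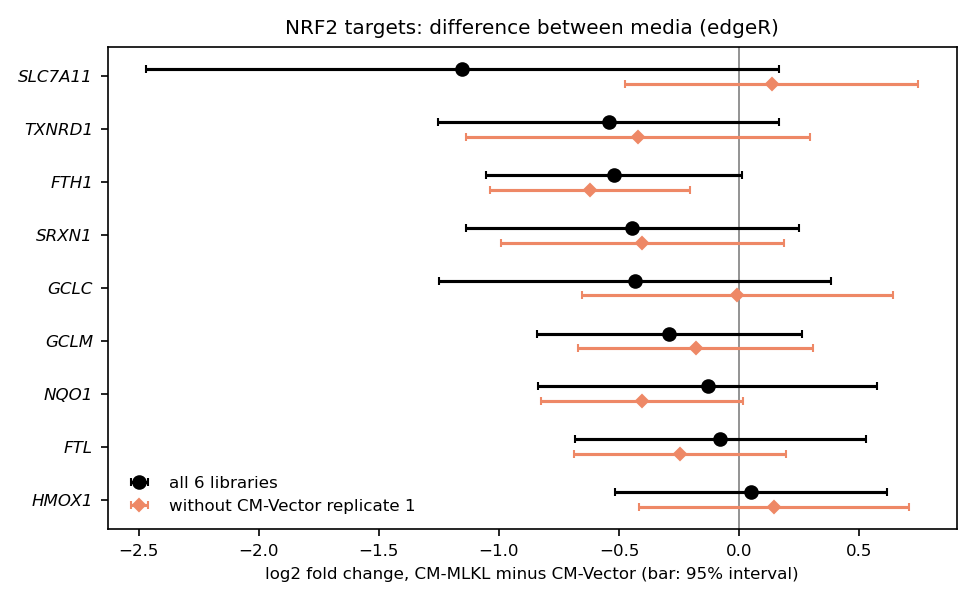
Log2 fold change of CM-MLKL over CM-Vector (x axis) for each of the 9 genes (y axis) with its 95% interval, from all 6 libraries (circles) and without CM-Vector replicate 1 (diamonds). With all libraries every interval includes 0; without that replicate SLC7A11 moves from -1.15 to 0.13 and the interval of FTH1 lies below 0, at an adjusted p of 0.143.

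The 9 genes did not all vary together across libraries, although 4 of them shared both their highest and their lowest library. Relative to its mean over all 6 libraries on the log2 scale, CM-Vector replicate 1 was at 1.91 for SLC7A11, 0.85 for GCLC and 0.50 for TXNRD1, but at -0.79 for NQO1 and -0.44 for FTL. It was the highest library for 4 of the 9 genes (SLC7A11, GCLC, GCLM and TXNRD1) and the lowest for 2 (NQO1 and FTL). CM-MLKL replicate 2 was the lowest library for those same 4 and the highest for HMOX1 (0.39). How often these 2 libraries were the extreme among all genes tested was not counted, so these counts do not mark the 9 out. The highest library exceeded the lowest by 2.59 on the log2 scale for SLC7A11, by 1.61 for TXNRD1 and by 0.58 for GCLM, the steadiest of the 9. Without CM-Vector replicate 1, 0 of the 9 passed the test, beside 1.44% of all genes called higher and 0.755% called lower, and their median log2 fold change was -0.25. In that fit 7 of the 9 were below 0, beside 45.1% of all genes. The median over all genes moved from -0.043 to 0.051.

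**Figure D4:**
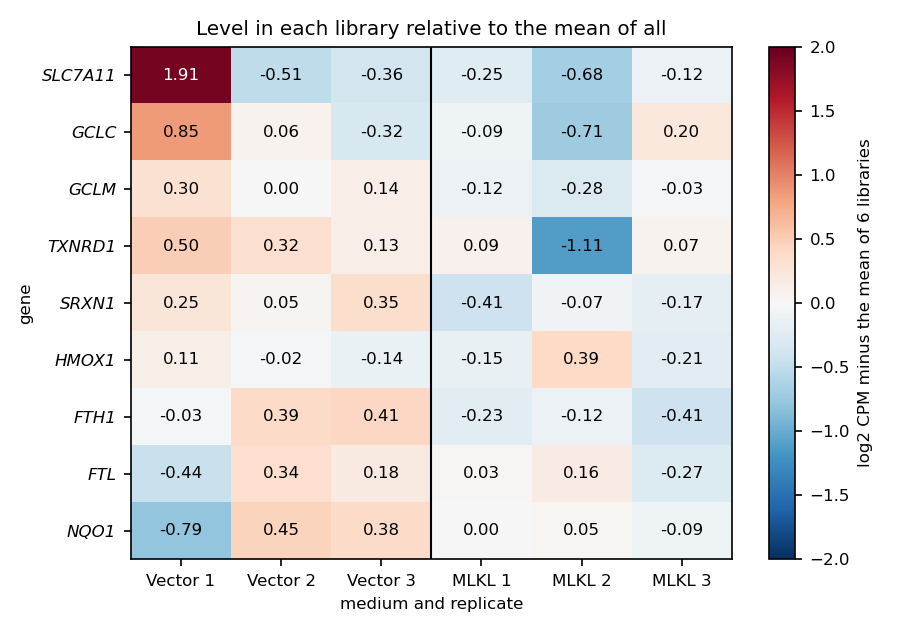
Level of each gene (rows) in each library (columns) as log2 CPM minus its mean over the 6 libraries, with the value printed in each cell and the colour scale from -2 to 2. CM-Vector replicate 1 is high for SLC7A11 (1.91) and low for NQO1 (-0.79), and CM-MLKL replicate 2 is low for TXNRD1 (-1.11).

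Per kilobase of annotated exon, the levels in the CM-Vector group ran in the order FTL (2524 ± 664 CPM per kb), FTH1 (725 ± 119), NQO1 (130 ± 52.6), TXNRD1 (30.8 ± 3.91), HMOX1 (19.6 ± 1.70), GCLM (4.50 ± 0.477), SRXN1 (2.50 ± 0.261), GCLC (2.24 ± 0.962) and SLC7A11 (1.43 ± 1.44; SD, n = 3). Over all 6 libraries the ranges of FTL, FTH1 and NQO1 did not touch those of any other gene. TXNRD1 (11.4 to 34.8 CPM per kb) and HMOX1 (17.1 to 25.9) overlapped, as did SRXN1, GCLC and SLC7A11, and the lowest GCLM value (3.33) was close to the highest GCLC value (3.32). Exon lengths were unions over all annotated transcripts, so a gene with long unused exons appears lower on this scale.

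On GRCh38 (GENCODE 29) the genes lie on 9 different chromosomes: GCLM on 1, SLC7A11 on 4, GCLC on 6, FTH1 on 11, TXNRD1 on 12, NQO1 on 16, FTL on 19, SRXN1 on 20 and HMOX1 on 22. FTH1 spans 61959718 to 61967660 on the minus strand, TXNRD1 104215779 to 104350305 on the plus strand, SLC7A11 138164097 to 138242349 on the minus strand and NQO1 69706996 to 69726951 on the minus strand, all as protein-coding genes. BEST1 on the opposite strand shares 62.4% of the exon bases of FTH1, and its row held 43 counts over all libraries against 128828 for FTH1. AL121758.1 shares 85.0% of those of SRXN1 on the same strand, with 8 counts against 608. RPL18AP3, a processed pseudogene on the same strand, overlaps the span of TXNRD1 but shares 0 of its exon bases. Its row held 21257 counts against 18505 for TXNRD1, and its part in the TXNRD1 counts was not tested. With a kit that does not mark strand, reads from stretches shared with the opposite strand cannot be told apart.

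The regulators of the pathway were examined next, and none of the 10 passed the test (median log2 fold change 0.024, 5 above and 5 below 0). NFE2L2 itself was at 68.0, 42.1 and 34.7 CPM with CM-Vector and at 47.5, 39.3 and 64.8 CPM with CM-MLKL, with the highest and the lowest library in the same group (log2 fold change 0.066, adjusted p = 0.999, edgeR). KEAP1, its inhibitor, was at 80.2, 63.6 and 67.2 CPM and at 45.7, 65.2 and 45.7 CPM (log2 fold change -0.43, adjusted p = 0.976, edgeR). The remaining ligase subunits CUL3 and RBX1 had log2 fold changes of -0.24 and -0.13, and SQSTM1, the autophagy receptor that can sequester KEAP1, one of -0.20, which was -0.032 without CM-Vector replicate 1.

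Among the DNA-binding partners, MAFG was the only regulator with separated groups. That was 1 of 10 regulators, beside 6.43% of all genes tested with every CM-MLKL library above and 5.50% with every one below. MAFG was at 89.2, 93.9 and 88.9 CPM with CM-Vector and at 104, 138 and 114 CPM with CM-MLKL (log2 fold change 0.39, SE 0.224, adjusted p = 0.972, edgeR). MAFF and MAFK, the other small MAF genes, had log2 fold changes of 0.13 and -0.00048, and NFE2L1, the NRF2 relative that controls proteasome genes, one of 0.14. BACH1 was at 34.2, 11.1 and 9.40 CPM with CM-Vector and at 17.9, 16.2 and 22.5 CPM with CM-MLKL. CM-Vector replicate 1 again stood above the rest, and without it the log2 fold change of BACH1 went from 0.048 to 0.91 (adjusted p = 0.103, edgeR).

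Over the regulators and 5 further lists of antioxidant, NADPH and iron genes, 67 of 74 genes could be tested and 0 passed in either direction by edgeR (2 at an unadjusted p under 0.05), with a median log2 fold change of -0.047 and 55.2% below 0. DESeq2 and limma-voom likewise called 0 of them. The 12 tested glutathione genes had a median of -0.17, with GLRX, glutaredoxin, at -0.48 and GPX4, the lipid peroxidase that guards against ferroptosis, at -0.40. With 1 library left out GPX4 ranged from -0.69 (without CM-Vector replicate 1) to -0.12 (without CM-Vector replicate 2). The 12 thioredoxin, peroxiredoxin and superoxide genes had a median of -0.082, with PRDX6 at 0.30, the thioredoxin inhibitor TXNIP at -0.48 and the mitochondrial reductase TXNRD2 at -0.23. TXNIP ranged from -0.84 to -0.19 with 1 library left out (without CM-MLKL replicates 3 and 2) and was at -0.83 without CM-Vector replicate 1. The 7 NADPH supply genes had a median of 0.16 and 5 of them were above 0, among them IDH1 (0.41), PGD (0.18) and TALDO1 (0.18). The genes named here had adjusted p of 0.929 to 0.999 in the edgeR test.

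Several classical NRF2 targets of the carbonyl and xenobiotic group were hardly detected. AKR1C1, AKR1C2, AKR1C3, AKR1B10 and ALDH3A1 had 0 to 6 counts in any library, as had GPX2 and the iron exporter SLC40A1 with 0 to 3, and they could not be tested. The upper limit behind a zero is 3 counts, equal to 0.168 to 0.189 CPM before TMM scaling, and it covers counting error only. The 12 genes of that group that could be tested had a median log2 fold change of -0.15, with the drug exporters ABCC2 at -1.10 and ABCC3 at -0.49 and pirin (PIR) at -0.47 (adjusted p from 0.882 to 0.999, edgeR). CM-Vector replicate 1 held the highest level of ABCC2, whose log2 fold change was -0.61 without it.

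**Figure D5:**
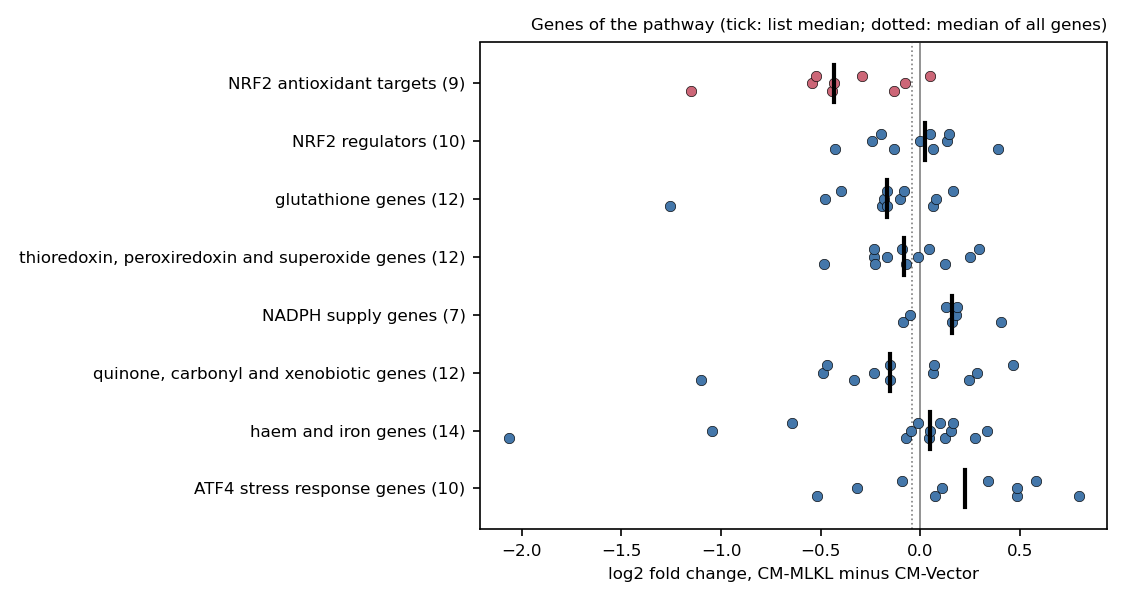
Log2 fold change of CM-MLKL over CM-Vector (x axis) for each tested gene of the 9 NRF2 targets and of 7 further lists (y axis, number tested in brackets), with a tick for the median of each list and a dotted line for the median of all 14046 genes (-0.043). No gene shown passed the test; the lowest points are TFRC (-2.07) among the haem and iron genes and CHAC1 (-1.26) among the glutathione genes.

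Among iron handling genes beside ferritin were the 2 tested pathway genes at an unadjusted p under 0.05, TFRC and LCN2. TFRC, the transferrin receptor that imports iron, was at 212, 34.7 and 28.5 CPM with CM-Vector and at 21.4, 14.3 and 30.1 CPM with CM-MLKL, so that CM-Vector replicate 1 alone stood far above the rest, as it did for SLC7A11. Its log2 fold change was -2.07 (SE 0.682, unadjusted p = 0.0120, adjusted p = 0.445, edgeR) and -0.50 without that library (adjusted p = 0.486). LCN2, a secreted siderophore-binding protein, was at 7.19, 11.3 and 7.25 CPM with CM-Vector and at 3.79, 4.71 and 3.99 CPM with CM-MLKL, with separated groups (log2 fold change -1.04, SE 0.337, adjusted p = 0.421, edgeR). IREB2, an iron sensor that binds ferritin and TFRC transcripts, had a log2 fold change of -0.65 (adjusted p = 0.999), which turned to 0.33 without CM-Vector replicate 1. The 14 tested haem and iron genes had a median of 0.047.

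SLC7A11 is also a target of ATF4, the factor of amino acid and endoplasmic reticulum stress, and 10 genes of that response were therefore set beside it. None of the 10 passed the test (median log2 fold change 0.22, 7 above 0). ATF4 was at 546, 571 and 548 CPM with CM-Vector and at 388, 382 and 391 CPM with CM-MLKL, with separated groups and SDs of 13.8 and 4.51 CPM (log2 fold change -0.52, SE 0.214, unadjusted p = 0.0347, adjusted p = 0.701, edgeR). ATF3 was higher in every CM-MLKL library, at 206, 113 and 100 CPM against 244, 220 and 263 CPM (log2 fold change 0.79, adjusted p = 0.591), and passed without CM-Vector replicate 1 (log2 fold change 1.21, adjusted p = 0.0166, edgeR). PSAT1, a serine synthesis enzyme, had a log2 fold change of 0.48 (adjusted p = 0.938) with overlapping groups. ASNS and PHGDH were also higher in every CM-MLKL library (log2 fold changes 0.58 and 0.48, adjusted p = 0.999 and 0.977, edgeR). Of the 10 genes, 3 thus had every CM-MLKL library above and 1 every one below, beside 6.43% and 5.50% of all genes tested. CHAC1, which degrades glutathione and is induced by ATF4, followed SLC7A11 in its outlying library, at 140, 27.2 and 20.9 CPM with CM-Vector and at 25.6, 35.1 and 18.3 CPM with CM-MLKL. Its log2 fold change was -1.26 with all libraries and 0.16 without CM-Vector replicate 1. CHAC1 was listed with the glutathione genes, and the ATF4 list itself was mixed in that library. CM-Vector replicate 1 was the highest library for TRIB3 (243 CPM) and VLDLR (2.35 CPM). It was the lowest for ASNS (2.45 CPM), PHGDH (95.2 CPM) and DDIT4 (63.1 CPM), and neither for the rest.

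Genes with the most similar profiles were sought among 10053 tested genes averaging at least 5 CPM, by the root mean square difference of log2 CPM centred on the mean of the 6 libraries. The nearest to SLC7A11 was NCOA7 (0.124), to TXNRD1 the histamine methyltransferase gene HNMT (0.0795), to NQO1 the chromatin gene MRGBP (0.0335), to FTL the cytochrome oxidase subunit COX4I1 (0.0285) and to FTH1 the glucose transporter family gene SLC2A11 (0.0512), followed by the ribosomal protein gene RPS27 (0.0585). For GCLC it was CUL1 (0.0663), for GCLM the clathrin adaptor AP2B1 (0.0335), for SRXN1 AEBP2 (0.0804) and for HMOX1 WDR4 (0.0682). No member of the 9 was among the 3 nearest genes of another.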

How the data were processed

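The authors extracted RNA with Trizol, selected mRNA on oligo(dT) beads, used a NEBNext Ultra library kit, which leaves strand unmarked, filtered reads with fastp and ran StringTie. The aligner, build and counter were not given in the sources used here. Raw counts per gene are what was deposited, as whole numbers. Of 58735 names, 58708 match GENCODE 29, and the other 27, turned into dates by a spreadsheet, stayed in the fit unnamed. Genes were kept by filterByExpr (minimum count 10, minimum total 15) and tested with edgeR 4.0.16 in R 4.3.3 (TMM scaling, quasi-likelihood test, group as the only term, two-sided, Benjamini-Hochberg threshold 0.05 over all genes). The study's methods name DESeq2 and the same threshold. SE is the fold change over the root of the F statistic, and 95% intervals use it with the total degrees of freedom. Alternatives used DESeq2 1.42.0 (test and size factors), limma-voom 3.58.1, library size only, other filters, each library left out and a replicate block. Code was tested on simulated data. Members and lists were chosen with earlier results of these data known. From each list every gene past the threshold and the 3 with the smallest adjusted p were named, with all regulators and, per member, the nearest profiles. Other genes are named for their role or their counts, after their values were seen. P-values of the count tests weigh the difference between groups against the spread between these libraries. Those of the ratios come from permuting the libraries.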

Additional observations from a re-analysis of the deposited data

How the results depend on the processing

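None of the 9 NRF2 targets passed the test in any of the 13 alternatives, so that count did not depend on the processing. The lowest adjusted p of any of them was 0.143 (FTH1, without CM-Vector replicate 1). FTH1, TXNRD1, SRXN1, GCLM and GCLC kept their negative direction throughout. With 1 library left out, log2 fold changes ranged from -0.40 to 0.080 for NQO1, -0.16 to 0.16 for HMOX1, -1.52 to 0.13 for SLC7A11 and -0.25 to 0.091 for FTL, and the difference in log2 GCLM to GCLC ratio from -0.14 to 0.36. They ranged from -0.15 to 0.42 for NFE2L2, -0.26 to 0.91 for BACH1, -0.014 to 0.27 for MAFF, -0.37 to 0.18 for MAFK, -0.29 to 0.0030 for RBX1, -1.67 to 0.16 for CHAC1 and -0.96 to 0.33 for IREB2. BACH1 was at -0.056 with library size only, and MAFK at 0.024 with DESeq2 size factors, 0.024 with DESeq2 and 0.015 with no filter. The 74 other pathway genes and the 10 ATF4 genes were also followed over the alternatives. With no filter on low counts, 2 were called lower (TFRC and CHAC1), beside 100 of 26578 genes. With the replicate block 1 was called lower (TFRC), beside 43 of 14046 genes. With 1 library left out, 0 to 1 were called higher. That gene was ATF3, without CM-Vector replicate 1, beside 206 of 14303 genes. Without that library the log2 fold changes of TFRC and CHAC1 were -0.50 and 0.16, and neither was called. Over all genes, 57 higher and 15 lower became 140 and 67 with DESeq2, 149 and 100 with no filter, and 14 to 206 and 4 to 108 with 1 library left out (206 and 108 without CM-Vector replicate 1, 14 and 4 without CM-MLKL replicate 2). With the replicate number as a block they were 112 and 43. Deviations from the group means correlated at 0.17, 0.17 and -0.31 between same-numbered libraries. With 3 libraries a group, 1 of them outlying, these values cannot decide whether the numbers pair the libraries. The cause of these shifts was not tested. With 3 libraries a group, the log2 fold changes of the 9 genes had SEs of 0.241 to 0.595, which limits the differences that could be resolved.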
